A study of Homo sapiens with 15 samples.

Results

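The measurement described here is the difference between Saos2 and MG-63 osteosarcoma cells in their transcript response to didesmethylrocaglamide (DDR). For each gene it is the log2 change with DDR over DMSO in Saos2 minus the log2 change with DDR over DMSO in MG-63, so a positive value means a higher response in Saos2. It used 10 of the 15 RNA-seq libraries of the series: 3 of Saos2 cells treated with 7 nM DDR, 3 of Saos2 cells given DMSO vehicle, 2 of MG-63 cells treated with 5 nM DDR and 2 of MG-63 cells given vehicle. All cells were collected after 24 h, and the vehicle was 0.04% DMSO. The 7 nM and 5 nM doses were each chosen as the growth IC50 of that line, so the lines received unequal concentrations. Saos2 and MG-63 are established human osteosarcoma lines, and each stands for 1 line, not for tumors. The other 5 libraries, of cells treated with the related compound rocaglamide (Roc), helped to set the genes tested, the scaling and the estimate of the spread. They are not part of the difference itself. The labels call the DMSO and DDR samples biological replicates and say no more of how they were grown, so the p-values rest on the spread among these samples, which may be technical. The counts of each line came in a table of its own, so line and table cannot be told apart. An offset of a table that is the same with DMSO and with DDR cancels in the difference.

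DDR is a rocaglate, a class of plant-derived compounds that clamp the RNA helicase eIF4A onto purine-rich RNA and thereby block the scanning of ribosomes along messages. eIF4A works within the eIF4F complex, which brings ribosomes to capped mRNA. RNA sequencing counts transcripts and gives no measure of how well each is translated. The comparison addresses which transcripts answered the compound unequally in the lines.

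The 10 libraries held 28838167 to 42541127 counts, of which 98.93 to 99.49% fell on genes listed for both lines. Of the 8 osteosarcoma cell markers of the list used here, 8 averaged at least 1 CPM in Saos2 and 7 in MG-63, where ALPL was near 0, with summed levels of 2800 to 2990 CPM with DDR and 2760 to 2830 CPM with DMSO in Saos2, and of 13900 to 15200 CPM with DDR and 13000 to 13900 CPM with DMSO in MG-63. CPM are counts scaled to a common library total with TMM. Blood cell markers summed to at most 0.868 CPM in any of the libraries. Neuronal markers, mostly MAP2, summed to 72.2 to 78.5 CPM with DDR and 67.8 to 82.5 CPM with DMSO in Saos2. In MG-63 they summed to 11.1 to 13 CPM with DDR and 6.86 to 7.96 CPM with DMSO. Endothelial markers summed to 1.14 to 1.47 CPM with DDR and 5.46 to 5.53 CPM with DMSO in MG-63, and to at most 1.23 CPM in Saos2. Epithelial markers, mostly EPCAM, summed to 14.9 to 17.8 CPM with DDR and 15.3 to 21.2 CPM with DMSO in Saos2, and to at most 1.07 CPM in MG-63. Osteoclast markers summed to 9.87 to 22.5 CPM over the libraries of both lines. The part of these markers in the results was not tested.

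Of 18,842 genes tested, the response was higher in Saos2 for 1311 (6.96%) and lower in Saos2 for 1189 (6.31%), in all 2500 genes (13.3%). A gene is called here when its Benjamini-Hochberg adjusted p in edgeR's quasi-likelihood test is at most 0.05 and its log2 difference is at least 0.5 in size. By the same thresholds DDR changed 2498 genes in Saos2 (13.3% of those tested) and 2256 in MG-63 (12%). Among called differences the median size was 0.773 on the log2 scale. Most called differences were not reversals. Of the genes with a higher response in Saos2, 453 fell in MG-63 with no call in Saos2, 399 rose in Saos2 with no call in MG-63, and 395 were called in neither line on its own. Of those with a lower response in Saos2, 439 rose in MG-63 alone, 319 fell in Saos2 alone and 363 were called in neither. Only 75 genes were called in opposite directions, 40 of them up in Saos2 and down in MG-63 and 35 down in Saos2 and up in MG-63. Another 520 genes were called in the same direction in both lines (352 rose and 168 fell), and the difference was called for 57 of these. Without DDR replicate 2 of MG-63 the count of lower responses was 729 in place of 1189.

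**Figure D1:**
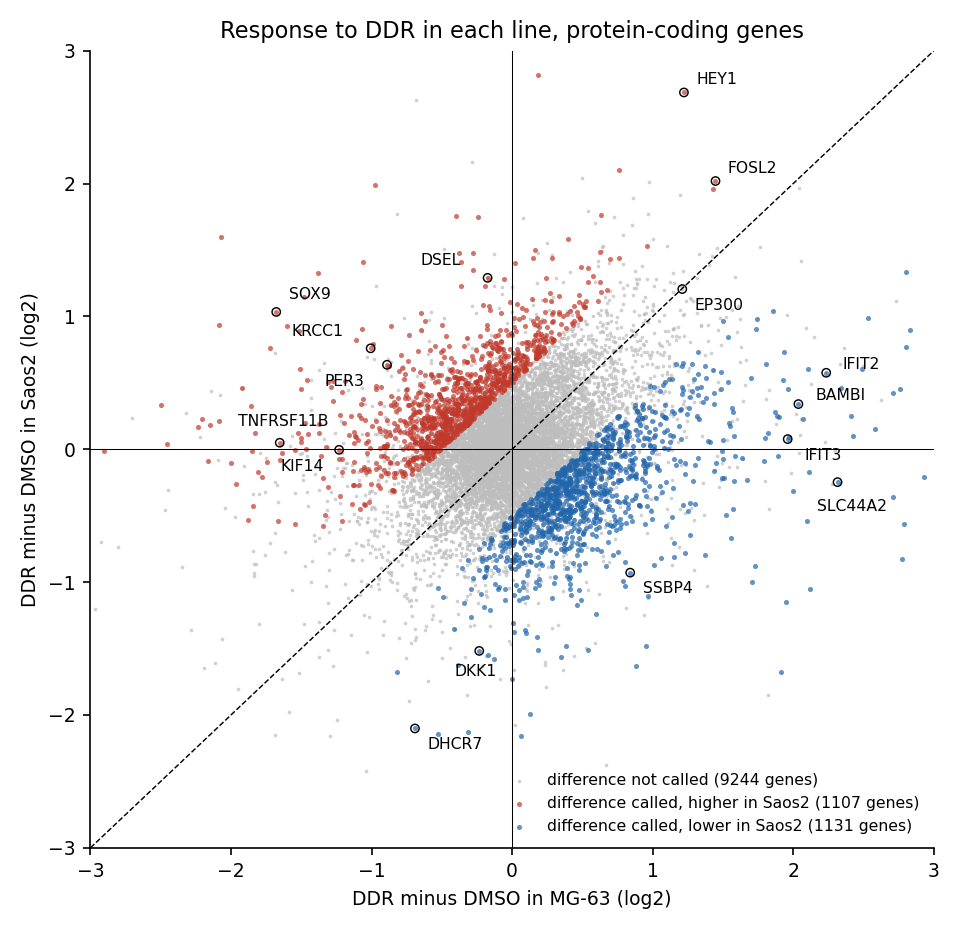
Each point is 1 of 11,482 protein-coding genes measured in both lines, with the log2 change with DDR in Saos2 on the y axis and in MG-63 on the x axis; 16 genes lie outside the axes. The 1107 genes with a higher response in Saos2 (red) lie above the dashed line of equal response and the 1131 with a lower response (blue) below it, and many of both groups lie near an axis.

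The called genes differed in base composition and in size. Among protein-coding genes measured in both lines, the median transcript GC content was 40.0% for the 1107 genes with a higher response in Saos2 and 57.3% for the 1131 with a lower response, against 47.3% for all 11,482. Sorted into quintiles by GC content, 24.6% of genes in the lowest quintile had a higher response in Saos2 and 0.959% a lower one, and in the highest quintile 0.785% had a higher and 24.8% a lower one. When single libraries were left out, the share of higher responses in the lowest quintile ran from 17.2 to 31.3%, and that of lower responses in the highest quintile from 14.8% without DDR replicate 2 of MG-63 to 41.2% without DDR replicate 2 of Saos2. The median change with DDR ran from 0.16 in the lowest GC quintile to −0.21 in the highest in Saos2, and from −0.16 to 0.23 in MG-63. The medians of the 2 lines were thus graded in opposite directions. Genes with a higher response in Saos2 also spanned more DNA, with a median of 58.8 kb, against 23.2 kb for those with a lower response and 35.1 kb for all.

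Within each line the libraries were not equally graded. The rank correlation of transcript GC content with a gene's deviation from its line's mean, across 11,465 genes that are not independent, was −0.4, 0.19 and −0.55 in the Saos2 DDR libraries and 0.51, 0.39 and −0.065 in the Saos2 DMSO libraries. DDR replicate 2 of Saos2 thus lay above DMSO replicate 3, and the groups overlapped. In MG-63 the values were 0.28 and 0.31 with DDR and −0.25 and −0.33 with DMSO, with no overlap. When a trend with GC content and transcript length was removed from every library, 747 genes had a higher and 775 a lower response in Saos2, and 1130 of these were among the 2500 called without it (45.2% of them). The share of calls was then 4.8 and 5.28% in the lowest GC quintile and 4.54 and 5.28% in the highest. Whether the gradient came from the cells or from the making of the libraries was not tested.

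**Figure D2:**
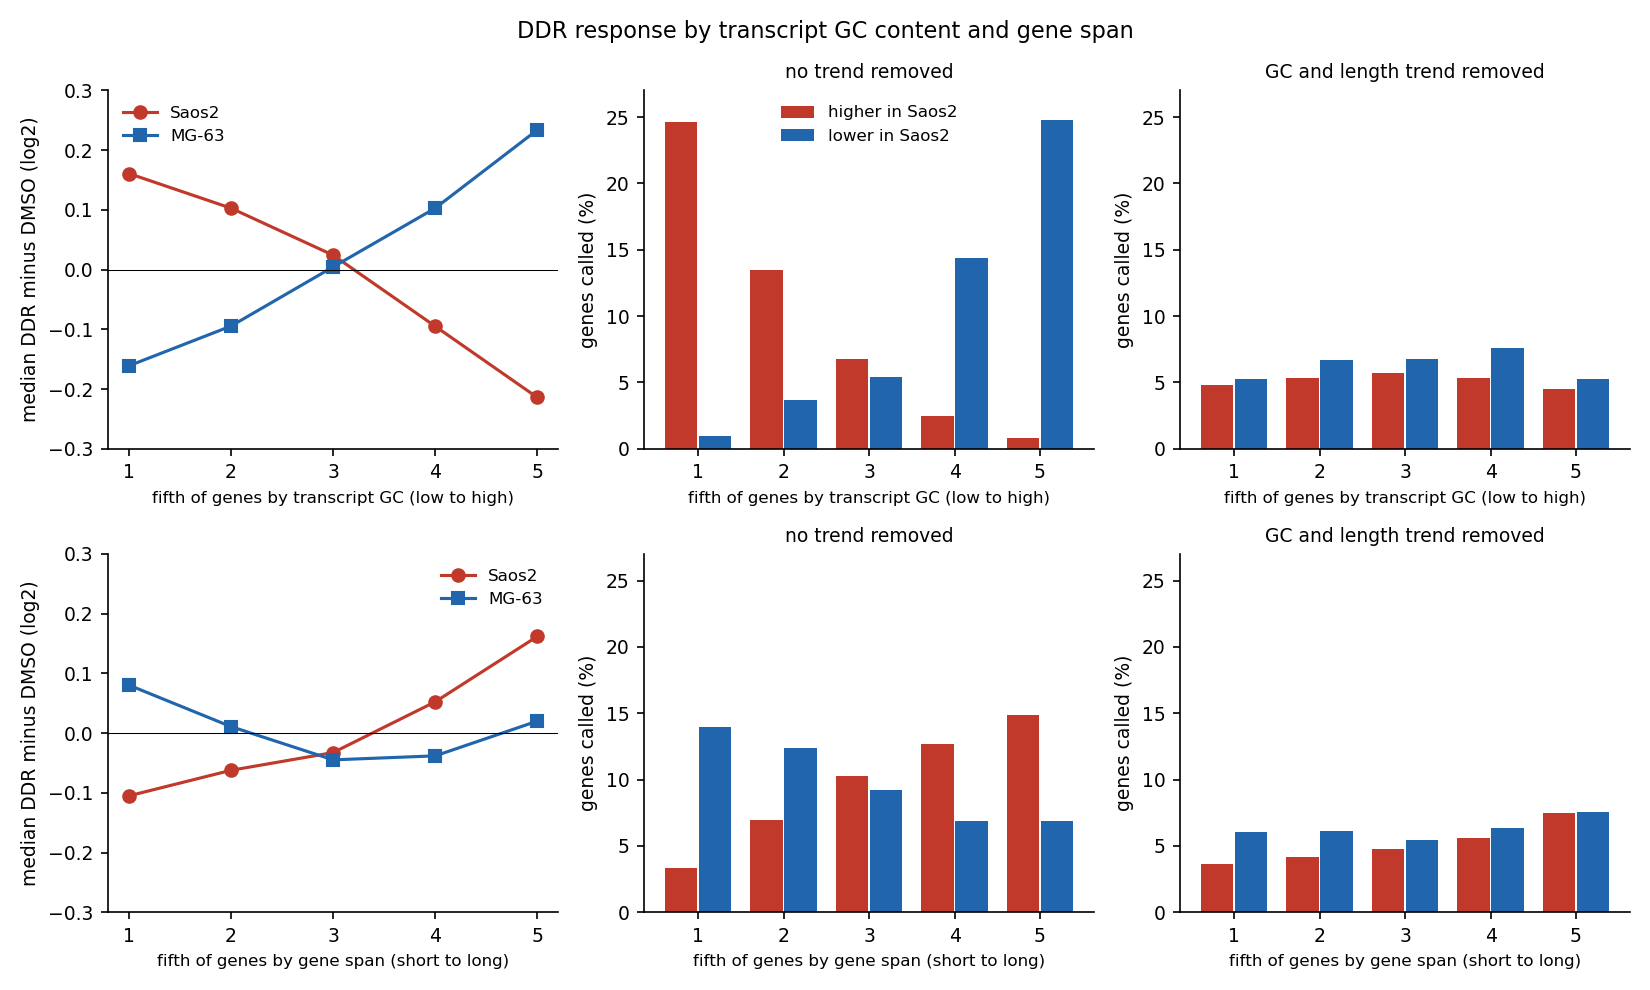
Top row, genes in quintiles by transcript GC content; bottom row, by gene span. Left, the median log2 change with DDR in Saos2 (circles) and MG-63 (squares); middle and right, the percentage of genes with a higher (red) or lower (blue) response in Saos2, without and with the trend in GC content and length removed, which flattens the bars to between 3.66 and 7.59%.

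Of the genes called up in Saos2 and down in MG-63, SOX9, the transcription factor that directs cartilage formation (GRCh37 chr17:70117161-70122557, + strand), had 112, 114 and 129 CPM with DDR against 50.3, 61.9 and 61.1 CPM with DMSO in Saos2. In MG-63 it had 4.66 and 7.65 CPM with DDR against 19.2 and 20.1 CPM with DMSO. Every DDR library was above the DMSO libraries in Saos2 and below them in MG-63. SOX9 rose by 1.03 ± 0.11 in Saos2 and fell by 1.68 ± 0.16 in MG-63 on the log2 scale, a difference of 2.71 ± 0.19 (± SE; 95% interval 2.32 to 3.10; edgeR adjusted p = 4.5e-09). KRCC1, which encodes a lysine-rich coiled-coil protein (chr2:88326724-88363771, − strand), had 38.7, 38.6 and 38.2 CPM with DDR against 22, 21.5 and 24.7 CPM with DMSO in Saos2, and 11 and 12.2 CPM with DDR against 23.8 and 22.9 CPM with DMSO in MG-63. The starting levels of KRCC1 were alike in the lines and the DDR levels moved apart, with a difference of 1.77 ± 0.15 (adjusted p = 5.3e-08). PER3, a repressor of the circadian clock (chr1:7844351-7905237, + strand), had 156, 168 and 165 CPM with DDR against 101, 105 and 109 CPM with DMSO in Saos2, and 8.7 and 6.38 CPM with DDR against 15.1 and 12.9 CPM with DMSO in MG-63, a difference of 1.53 ± 0.15. ITPR1, the inositol trisphosphate receptor that releases calcium from the endoplasmic reticulum, rose by 0.90 ± 0.09 in Saos2 and fell by 0.65 ± 0.13 in MG-63. IL7, a lymphocyte growth factor, and TRIM9, a brain-enriched ubiquitin ligase, followed with differences of 1.78 ± 0.23 and 1.59 ± 0.32. The DDR and DMSO libraries did not overlap in either line for any of these 6 genes. They were chosen as the clearest reversals in these same libraries, so the separation follows largely from the choice. The share of all genes without overlap was not counted.

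Among reversals the other way, SSBP4, a single-stranded DNA binding protein, had 27.4, 38.7 and 20.1 CPM with DDR against 59.3, 61.7 and 43.1 CPM with DMSO in Saos2, and 21.3 and 18.5 CPM with DDR against 11.7 and 10.5 CPM with DMSO in MG-63. It fell by 0.93 ± 0.16 in Saos2 and rose by 0.84 ± 0.21 in MG-63, a difference of −1.77 ± 0.26 (adjusted p = 7.2e-05). The DDR and DMSO libraries of SSBP4 did not overlap in either line, which again follows largely from the choice of clear reversals. GPRC5B, an orphan receptor, had 1.81, 2.47 and 0.991 CPM with DDR against 2.86, 3.2 and 3.56 CPM with DMSO in Saos2, and 17.8 and 20.7 CPM with DDR against 5.56 and 6.02 CPM with DMSO in MG-63, so its Saos2 change rests on a low level. GALNT3, an enzyme that starts O-linked glycans, RAB3B, a vesicle-traffic GTPase, and NARFL, which helps to assemble cytosolic iron-sulfur proteins, had differences of −2.01 ± 0.27, −1.83 ± 0.28 and −1.40 ± 0.26. MT-ND6, a mitochondrial gene for a subunit of respiratory complex I, had a difference of −1.38 ± 0.28, in data from which mitochondrial reads had been filtered. Without DDR replicate 2 of Saos2 the genes called in opposite directions numbered 137, and without DDR replicate 2 of MG-63 they numbered 45.

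**Figure D3:**
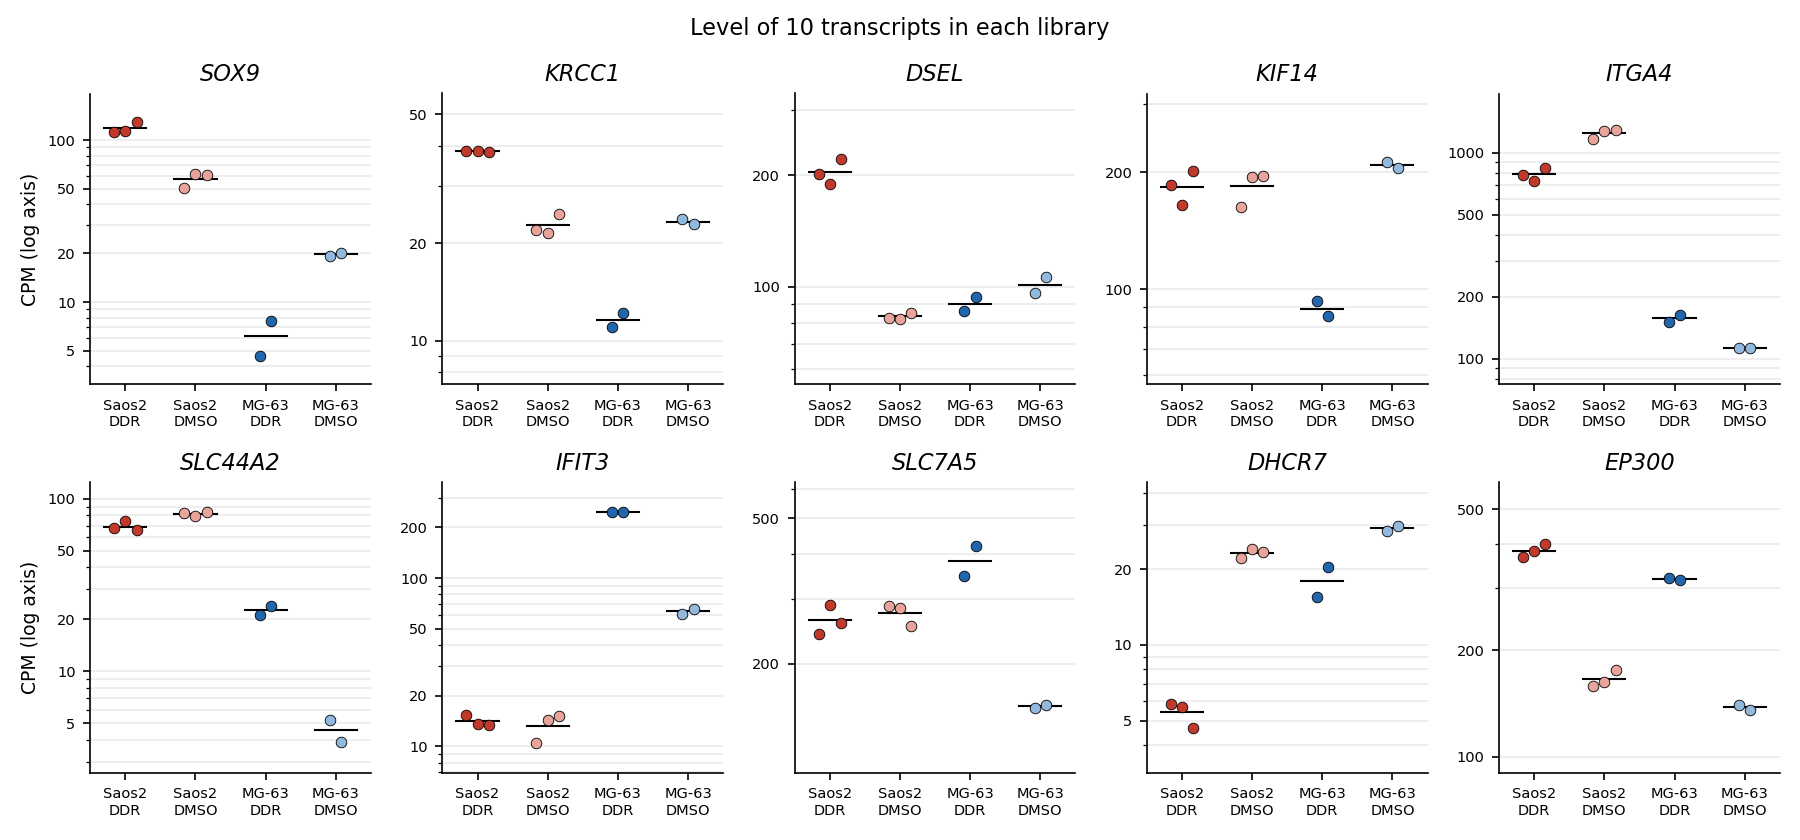
CPM on a log axis of 10 transcripts in each of the 10 libraries, by line and compound, with a bar at each group's mean. SOX9 and KRCC1 were called in opposite directions in the lines, DSEL and ITGA4 were called in Saos2 only, and KIF14, SLC44A2, IFIT3 and SLC7A5 in MG-63 only. ITGA4 also rose by 0.48 in MG-63 and SLC44A2 fell by 0.25 in Saos2, both under the fold threshold. DHCR7 fell in both lines and further in Saos2, and EP300 rose in both.

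Genes with a higher response in Saos2 included several that were called in that line alone. DSEL, an epimerase-like enzyme of dermatan sulfate (chr18:65173824-65183957, − strand), had 201, 189 and 221 CPM with DDR against 82.6, 82 and 85.3 CPM with DMSO in Saos2. In MG-63 it had 85.9 and 93.8 CPM with DDR against 96.3 and 106 CPM with DMSO. The Saos2 DDR libraries stood above all others, and DSEL rose by 1.29 ± 0.08 in Saos2, with a change of −0.17 ± 0.09 in MG-63 and a difference of 1.46 ± 0.12 (adjusted p = 3.5e-08). SPRED1, an inhibitor of RAS signaling mutated in Legius syndrome, rose by 1.09 ± 0.08 in Saos2, with −0.21 ± 0.09 in MG-63. BNC2, a zinc finger factor of connective tissue cells, rose by 1.05 ± 0.08 in Saos2, where it had 42, 40.9 and 48.9 CPM with DDR against 20.9, 21.1 and 21.6 CPM with DMSO, while its MG-63 levels were 1454 and 1331 CPM with DDR against 1568 and 1542 CPM with DMSO. TMEM65, an inner mitochondrial membrane protein, rose by 1.09 ± 0.07 in Saos2, with 0.03 ± 0.08 and overlapping groups in MG-63.

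Other genes had a higher response in Saos2 mainly because they fell in MG-63. RGS17, a brake on G protein signaling, had 20.5, 16.1 and 16.5 CPM with DDR against 11.5, 12.1 and 14.7 CPM with DMSO in Saos2, and 48.7 and 47.9 CPM with DDR against 115 and 121 CPM with DMSO in MG-63, where it fell by 1.29 ± 0.12. NAV3, a neuron navigator protein that binds microtubules, rose by 0.51 ± 0.09 in Saos2 and fell by 1.31 ± 0.11 in MG-63. SEMA6D, a membrane-bound semaphorin, rose by 0.52 ± 0.08 in Saos2 and fell by 1.19 ± 0.10 in MG-63. TRIM2, a ubiquitin ligase of neurons, fell by 0.75 ± 0.09 in MG-63, with a change of 0.46 ± 0.07 in Saos2. The adjusted p of these 4 differences was at most 5e-07.

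Among genes with a lower response in Saos2, SLC44A2, a choline transporter (chr19:10713133-10755233, + strand), had the smallest p of all protein-coding genes that met the rule for named genes. It had 67.8, 73.9 and 65.5 CPM with DDR against 82.8, 79.7 and 83.4 CPM with DMSO in Saos2, and 21.1 and 24 CPM with DDR against 5.23 and 3.88 CPM with DMSO in MG-63. It rose by 2.32 ± 0.13 in MG-63, against −0.25 ± 0.09 in Saos2, a difference of −2.56 ± 0.16 (95% interval −2.88 to −2.24; adjusted p = 4e-10). LBH, a WNT-responsive transcription cofactor, had 26.6 and 27.1 CPM with DDR against 7.26 and 7.2 CPM with DMSO in MG-63, where it rose by 1.89 ± 0.15. In Saos2 the LBH groups overlapped, at 71, 91.4 and 73.1 CPM with DDR against 85.4, 84.7 and 74.3 CPM with DMSO. RUNX3, a RUNX transcription factor, rose by 1.02 ± 0.10 in MG-63, with −0.36 ± 0.08 in Saos2.

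Several lower responses came from falls in Saos2. DKK1, a secreted WNT antagonist, had 30.1, 26.4 and 31.8 CPM with DDR against 80.9, 84.4 and 87.5 CPM with DMSO in Saos2, and 394 and 411 CPM with DDR against 451 and 495 CPM with DMSO in MG-63. It fell by 1.52 ± 0.08 in Saos2, with −0.23 ± 0.09 in MG-63. ITGA4, the alpha chain of the fibronectin and VCAM1 receptor, had 779, 731 and 849 CPM with DDR against 1169, 1275 and 1297 CPM with DMSO in Saos2, and 152 and 163 CPM with DDR against 113 and 113 CPM with DMSO in MG-63, a difference of −1.14 ± 0.11. TGFB1, the cytokine TGF-beta, fell by 0.79 ± 0.08 in Saos2, with 0.46 ± 0.10 in MG-63. ADAMTS5, a protease of cartilage aggrecan, fell by 0.98 ± 0.09, with 0.41 ± 0.11 in MG-63, and GALNT2, a glycosyltransferase, fell by 1.12 ± 0.09, with 0.28 ± 0.11. Part of the exons of IFIT2, IFIT3, PER3, ITGA4, TGFB1, IL7, GPRC5B, SSBP4 and NARFL is shared with a protein-coding gene on the other strand, and how HTSeq treated strand is not known from the sources, which makes their counts less certain. All 24 genes with the smallest p, 12 each way, kept their calls with the trend in GC content removed and without any 1 library. They were chosen for small p in these same libraries, so this says little of the other calls.

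Interferon-stimulated genes included many that rose in MG-63 and had a lower response in Saos2. These genes are induced through a transcription factor complex that holds STAT2 and IRF9 and binds a short element in their promoters, and they encode antiviral proteins. Of 47 members tested, 24 rose and 0 fell in MG-63, and 10 rose and 3 fell in Saos2. Of all 18,842 genes tested, 1191 rose and 1065 fell in MG-63, and 1405 rose and 1093 fell in Saos2. The response was lower in Saos2 for 16 and higher for 0, with a median difference of −0.535 against 0.0513 over all genes tested. The count was 18 with the GC trend removed and 11 to 17 when single libraries were left out. The list has 34.0% lower calls, beside 6.31% of all genes and 8.48% of all protein-coding genes. Of protein-coding genes measured in both lines, the nearest base for most lists, 9.85% had a lower and 9.64% a higher response. IFIT3, an adaptor of the IFIT complex that binds viral RNA (chr10:91087064-91137230, + strand), had 15.3, 13.6 and 13.3 CPM with DDR against 10.5, 14.3 and 15.2 CPM with DMSO in Saos2, and 246 and 248 CPM with DDR against 61.4 and 65.6 CPM with DMSO in MG-63. Its groups overlapped in Saos2 and were separate in MG-63, where it rose by 1.96 ± 0.12, and the difference was −1.88 ± 0.15 (adjusted p = 3.5e-08). IFIT2, its neighbor and partner (chr10:91043451-91069028, + strand), rose in both lines, by 0.58 ± 0.10 in Saos2 and 2.23 ± 0.11 in MG-63, with 14.2, 14.4 and 16.1 CPM against 7.99, 10.3 and 11.5 CPM in Saos2, and 203 and 205 CPM against 42.1 and 44.6 CPM in MG-63, DDR before DMSO.

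Other members, chosen after their values were seen, fell into several patterns. ISG15, a ubiquitin-like modifier, and HERC5, its ligase, rose by 1.79 ± 0.23 and 1.63 ± 0.17 in MG-63, with −0.09 ± 0.17 and −0.06 ± 0.12 in Saos2. IRF1, a transcription factor that acts on interferon genes, rose by 1.43 ± 0.15 in MG-63, with 0.34 ± 0.12 in Saos2. STAT2, a subunit of the complex that interferon activates, rose by 0.81 ± 0.14 in MG-63, with 0.10 ± 0.11 in Saos2. LGALS3BP, a secreted glycoprotein, was called through Saos2, where it fell by 1.05 ± 0.12. SP100, a nuclear body protein, was called lower through 1 library: it had 27.5, 28.2 and 28.6 CPM with DDR against 24.8, 1824 and 23.2 CPM with DMSO in Saos2. Without that library, DMSO replicate 2, the list counted 14 lower calls.

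**Figure D4:**
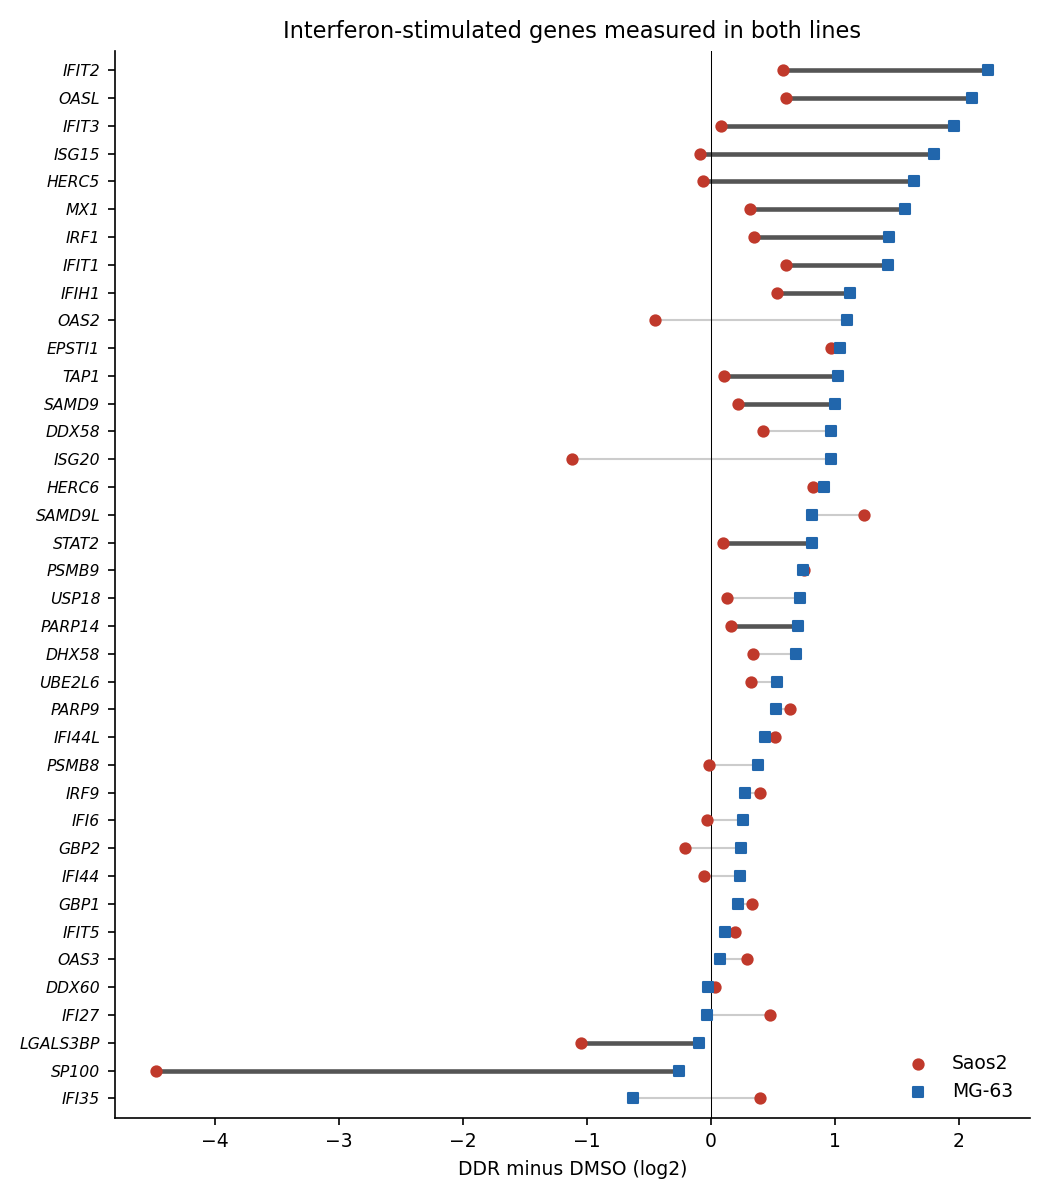
Log2 change with DDR in Saos2 (circles) and MG-63 (squares) for 38 interferon-stimulated genes measured in both lines, sorted by the MG-63 change; thick bars mark the 15 with a called difference. The squares of 13 of the 15 lie right of their circles and at 0.70 or more, while LGALS3BP and SP100 lie left of 0.

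The stretches before both annotated starts of IFIT3 are shown because its transcript differed most clearly between the lines among these genes and because both hold the core of the element through which interferon acts. The letters are from RefSeq on GRCh38.p14, + strand, bases 250 to 41 before each start, and capitals mark GAAANNGAA or its reverse complement.
IFIT3, first start, chr10:89327747-89327956: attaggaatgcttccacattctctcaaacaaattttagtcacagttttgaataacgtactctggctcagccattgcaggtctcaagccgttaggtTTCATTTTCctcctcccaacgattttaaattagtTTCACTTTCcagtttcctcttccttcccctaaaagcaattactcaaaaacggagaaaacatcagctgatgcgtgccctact
IFIT3, second start, chr10:89332279-89332488: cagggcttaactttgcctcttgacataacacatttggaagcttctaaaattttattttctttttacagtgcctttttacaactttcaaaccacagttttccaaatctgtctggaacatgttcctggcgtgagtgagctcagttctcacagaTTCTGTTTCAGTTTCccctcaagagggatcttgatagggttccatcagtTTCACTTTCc
The first stretch holds 2 matches and the second 3, of which 2 overlap. Of the interferon-stimulated genes with an entry, 10 of 13 with a lower response (76.9%) held the motif in the 250 bases before a start, and so did 13 of 23 with no called difference (56.5%), against 803 of 10688 protein-coding genes (7.51%). The motif was thus common in both groups of the list.

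Immediate early genes, which cells transcribe within minutes of a growth or stress signal, had 11 of 33 members lower (33.3%) and 2 higher (6.06%) in Saos2, with a median difference of −0.386. The shares were 6.31% and 6.96% over all genes, and 9.85% and 9.64% over protein-coding genes measured in both lines. In MG-63 14 rose and 0 fell, and in Saos2 6 rose and 3 fell, beside 1191 of all genes that rose and 1065 that fell in MG-63 and 1405 and 1093 in Saos2. Their counts depended on GC content, with 6 lower and 4 higher when its trend was removed. GADD45B, a stress-induced activator of p38 kinase signaling, had 21.1, 24.1 and 19.6 CPM with DDR against 22.3, 23.3 and 22.9 CPM with DMSO in Saos2, and 28.8 and 30.1 CPM with DDR against 16.2 and 16.7 CPM with DMSO in MG-63, where it rose by 0.84 ± 0.12. JUND, an AP-1 subunit, rose by 0.70 ± 0.12 in MG-63, with −0.16 ± 0.10 in Saos2. Its difference of −0.86 ± 0.16 was −0.136 with the GC trend removed (adjusted p = 0.712). EGR1, a zinc finger factor chosen after its values were seen, went the other way round and fell by 2.13 ± 0.18 in Saos2, with −0.31 ± 0.28 in MG-63. FOS, the partner of JUN, had 2.78, 2.91 and 2.97 CPM with DDR against 4.52, 4.7 and 3.56 CPM with DMSO in Saos2, and 0.0926 and 3.41 CPM with DDR against 0.366 and 0.145 CPM with DMSO in MG-63, so its called difference of −3.35 ± 0.94 rests on 1 library.

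Members of the integrated stress response, the program that ATF4 drives when amino acids run short or eIF2 is phosphorylated, had a lower response in Saos2 for 11 of 34 (32.4%, beside 6.31% of all genes) and a higher one for 1 (2.94%, beside 6.96%), with a median of −0.276 (8 lower and 0 higher with the GC trend removed). Over protein-coding genes measured in both lines the shares were 9.85% lower and 9.64% higher. SLC7A5 and SLC3A2 encode the light and heavy chains of the LAT1 amino acid transporter. SLC7A5 had 241, 290 and 258 CPM with DDR against 288, 284 and 254 CPM with DMSO in Saos2, and 347 and 418 CPM with DDR against 151 and 155 CPM with DMSO in MG-63. SLC3A2 had 83.9, 109 and 87.7 CPM with DDR against 104, 102 and 89 CPM with DMSO in Saos2, and 169 and 191 CPM with DDR against 79.7 and 82 CPM with DMSO in MG-63. Both chains rose in MG-63, by 1.32 ± 0.10 and 1.16 ± 0.12, and their groups overlapped in Saos2, with differences of −1.39 ± 0.13 and −1.23 ± 0.15 (adjusted p at most 6.7e-06). SESN2, a leucine-binding inhibitor of mTORC1, rose by 1.55 ± 0.19 in MG-63, with 0.18 ± 0.15 in Saos2. ATF4 itself, named after its values were seen, had −0.30 ± 0.07 in Saos2 and 0.25 ± 0.09 in MG-63. Of 25 NRF2 targets, which protect against oxidants, 6 had a lower response in Saos2 (24%) and 0 a higher one (6 and 1 with the trend removed). They were led by ABCC1, a drug and glutathione exporter (−0.93 ± 0.13), and TKT, the transketolase of the pentose phosphate pathway (−0.98 ± 0.15). Endoplasmic reticulum chaperones had 4 of 27 lower (14.8%), but 2 with the trend removed and 1 without DDR replicate 2 of MG-63. CALR, the calcium-binding chaperone calreticulin, fell by 0.82 ± 0.08 in Saos2, with −0.21 ± 0.10 in MG-63, and its difference was −0.429 with the trend removed, under the fold threshold. XBP1, a transcription factor of the unfolded protein response, fell by 0.60 ± 0.09 in Saos2, with 0.06 ± 0.11 in MG-63. The calls of both CALR and XBP1 were lost without DDR replicate 2 of MG-63. Cytosolic heat shock genes had 2 of 28 higher and 1 lower, close to the share of all genes. The 2 were CHORDC1, an HSP90 cochaperone (0.77 ± 0.13), and DNAJB4, an HSP40 cochaperone (0.52 ± 0.12), and neither call held with the GC trend removed.

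**Figure D5:**
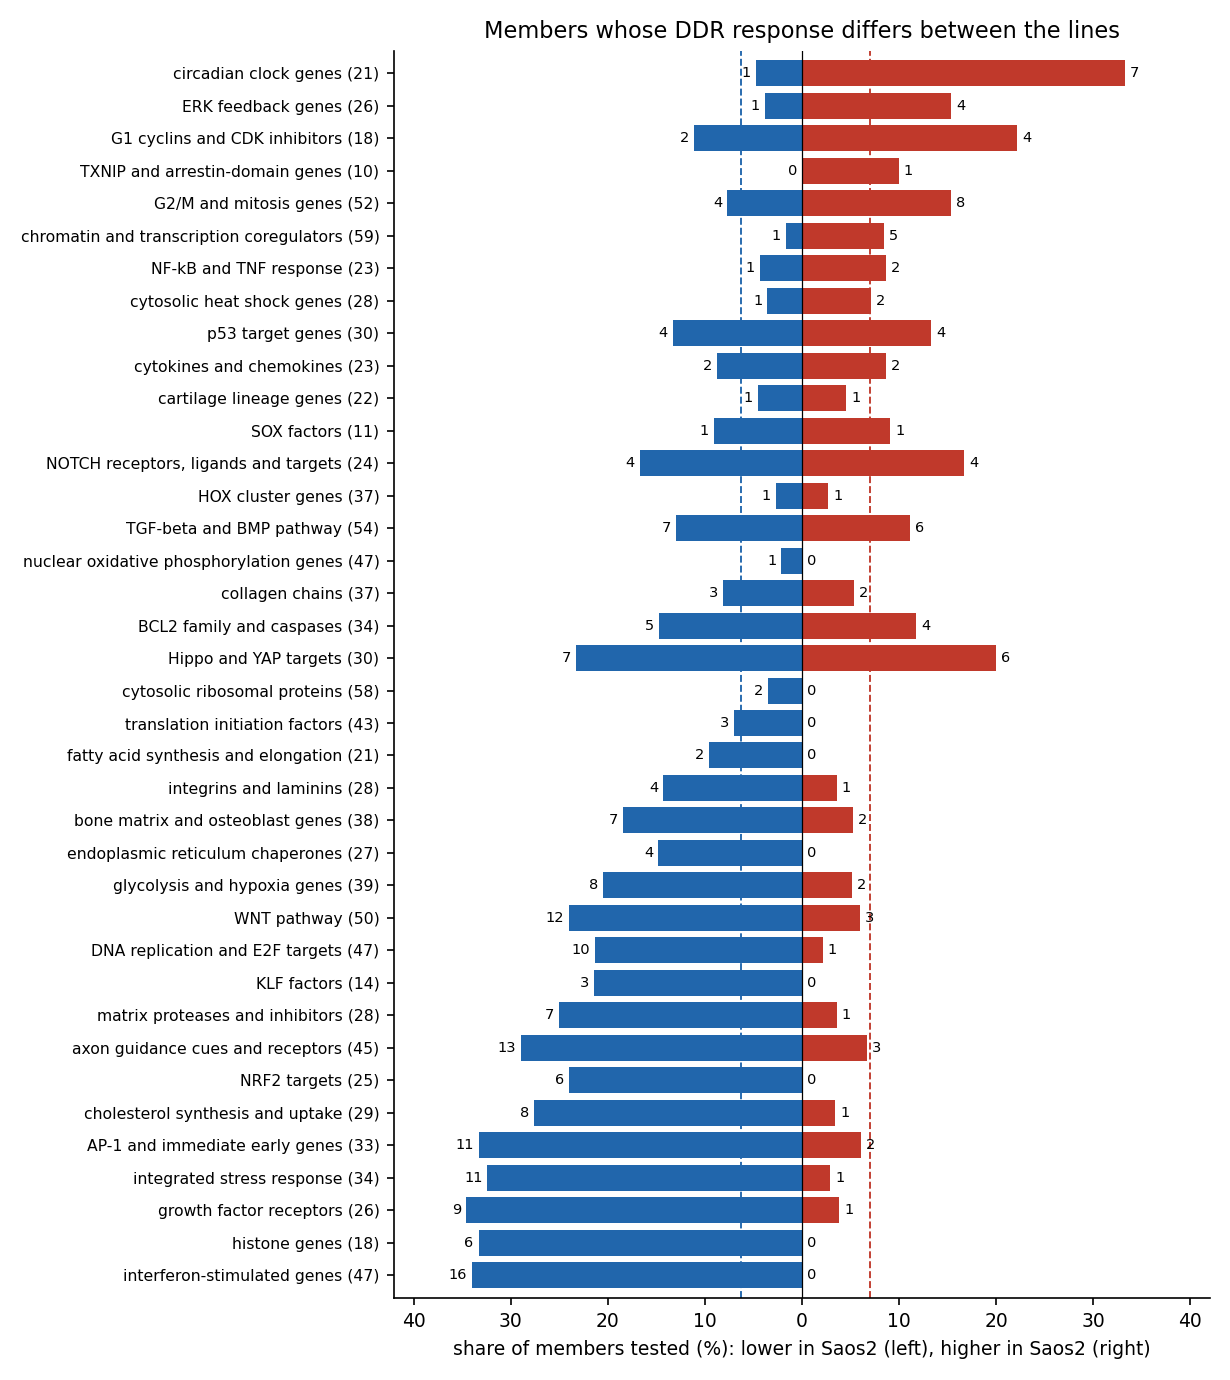
Percentage of tested members of each list with a higher (red, right) or lower (blue, left) response in Saos2, for the lists with at least 10 members tested; the number tested is in parentheses, the number called is at the bar's end, and dashed lines mark all genes tested (6.96% and 6.31%). The interferon, histone, growth factor receptor, stress and immediate early lists reach furthest to the left and the circadian clock list furthest to the right. Of protein-coding genes measured in both lines, 9.64% had a higher and 9.85% a lower response.

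Of 52 G2/M and mitosis genes, 8 had a higher (15.4%) and 4 a lower response (7.69%) in Saos2, with a median difference of 0.305. Among protein-coding genes measured in both lines the shares were 9.64% higher and 9.85% lower. In MG-63 15 of the mitosis genes fell and 1 rose, and in Saos2 4 fell and 0 rose. Of all 18,842 genes tested, 1065 fell and 1191 rose in MG-63, and 1093 fell and 1405 rose in Saos2. KIF14, a kinesin of the midbody, had 185, 165 and 201 CPM with DDR against 163, 194 and 196 CPM with DMSO in Saos2, and 93 and 85.4 CPM with DDR against 213 and 206 CPM with DMSO in MG-63. Its Saos2 groups overlapped, and in MG-63 it fell by 1.23 ± 0.10. HMMR, a spindle-associated hyaluronan receptor, fell by 1.34 ± 0.12 in MG-63, with −0.22 ± 0.10 in Saos2. With the GC trend removed 4 mitosis genes were called higher and 1 lower, and the median was 0.121. Without DMSO replicate 3 of Saos2 14 were called higher, and without DDR replicate 3 of Saos2 5. DNA replication and E2F targets had 10 of 47 lower (21.3%) and 1 higher (2.13%) in Saos2, against 7 and 0 with the trend removed. Of them 6 were lower without DMSO replicate 1 and 5 without DDR replicate 2 of MG-63. MCM7, a subunit of the replicative helicase, had 92.2, 106 and 87.7 CPM with DDR against 146, 150 and 135 CPM with DMSO in Saos2, where it fell by 0.59 ± 0.07, and 261 and 269 CPM with DDR against 212 and 226 CPM with DMSO in MG-63. CCNE2, the cyclin that opens S phase, had a difference of 0.61 ± 0.11, a call lost with the trend removed. Of 18 G1 genes 4 were higher (22.2%) and 2 lower (11.1%), against 1 and 0 with the trend removed. CCND1, the cyclin of early G1 and a target of ERK, rose by 0.90 ± 0.11 in Saos2 from low levels of 3.15 to 3.85 CPM with DMSO, with −0.09 ± 0.10 in MG-63, where it had 378 and 407 CPM with DDR.

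Histone genes had 6 of 18 members lower (33.3%) and 0 higher in Saos2 (7 and 0 with the trend removed), with a median of −0.377. Among protein-coding genes measured in both lines 9.85% had a lower and 9.64% a higher response. HIST1H2AC, an H2A gene, had 8.97, 7.73 and 9.51 CPM with DDR against 9.36, 11.3 and 12 CPM with DMSO in Saos2, and 9.78 and 10.4 CPM with DDR against 2.73 and 2.31 CPM with DMSO in MG-63, where it rose by 2.00 ± 0.21. HIST1H2BK, an H2B gene, rose by 1.30 ± 0.18 in MG-63, with −0.41 ± 0.15 in Saos2. Most histone messages lack a poly(A) tail, and the libraries were made from poly(A) RNA, so these counts are of the tailed share, and genes of the cluster are near copies of each other. Circadian clock genes had 7 of 21 higher (33.3%, beside 6.96% of all genes and 9.64% of protein-coding genes measured in both lines) in Saos2. Lower was 1 (4.76%, beside 6.31% and 9.85%). With the trend removed they numbered 4 and 0. The median was 0.335, and 4 were higher without DMSO replicate 2 of MG-63. Of the clock genes NR1D2, a heme-binding repressor of the clock, had 122, 127 and 146 CPM with DDR against 72.8, 79.1 and 86.1 CPM with DMSO in Saos2, and 124 and 131 CPM with DDR against 134 and 132 CPM with DMSO in MG-63. Its difference of 0.79 ± 0.12 was 0.475 with the GC trend removed, under the fold threshold. PER1, chosen after its values were seen, was the 1 lower member, at −0.98 ± 0.27. ERK feedback genes had 4 of 26 higher (15.4%) and 1 lower (3.85%), against 5 and 2 with the trend removed. Apart from SPRED1 and CCND1 they included DUSP6, a phosphatase of ERK named after its values were seen, which fell by 1.51 ± 0.19 in MG-63 and had 0.405, 0.407 and 0.764 CPM with DDR against 0.143, 0.181 and 0.496 CPM with DMSO in Saos2.

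Of 26 growth factor receptors, 9 had a lower (34.6%, beside 6.31% of all genes) and 1 a higher response in Saos2 (8 and 1 with the trend removed), with a median of −0.615. In MG-63 10 of the receptors rose and 1 fell, and in Saos2 4 rose and 2 fell. Of all 18,842 genes tested, 1191 rose and 1065 fell in MG-63, and 1405 rose and 1093 fell in Saos2. Over protein-coding genes measured in both lines 9.85% had a lower and 9.64% a higher response. PDGFRA, the alpha receptor of platelet-derived growth factor, was the 1 higher: it had 187, 172 and 202 CPM with DDR against 132, 145 and 145 CPM with DMSO in Saos2, and 973 and 978 CPM with DDR against 1584 and 1706 CPM with DMSO in MG-63, where it fell by 0.75 ± 0.09. GFRA1, a receptor of the neurotrophic factor GDNF, had 2.51, 3.38 and 3.14 CPM with DDR against 2.52, 2.43 and 3.15 CPM with DMSO in Saos2, and 13.1 and 15.5 CPM with DDR against 2.43 and 2.34 CPM with DMSO in MG-63. GFRA1 thus started alike in the lines and rose by 2.58 ± 0.29 in MG-63. Axon guidance genes, the semaphorins, ephrins and their receptors, had 13 of 45 lower (28.9%) and 3 higher (6.67%), and 6 and 4 with the trend removed. The lower count was 7 to 8 without either MG-63 DMSO library or DDR replicate 2 of MG-63. PLXNB2, a semaphorin receptor, rose by 0.84 ± 0.11 in MG-63, with −0.04 ± 0.09 and overlapping groups in Saos2, and its difference was −0.364 with the trend removed, against −0.87 before.

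Developmental signaling lists held calls both ways. Among protein-coding genes measured in both lines 9.85% had a lower and 9.64% a higher response. WNT pathway genes had 12 of 50 lower (24%) and 3 higher (6%) in Saos2, led by DKK1 and LBH, against 8 and 3 with the trend removed. The TGF-beta and BMP list had 7 of 54 lower (13%) and 6 higher (11.1%), against 8 and 2 with the trend removed. In all 19 of its members rose and 3 fell in Saos2, and 24 rose and 1 fell in MG-63. Of all 18,842 genes tested, 1405 rose and 1093 fell in Saos2, and 1191 rose and 1065 fell in MG-63. BAMBI, a decoy receptor that blocks TGF-beta signaling, rose by 2.04 ± 0.14 in MG-63, with 0.34 ± 0.10 in Saos2. NOTCH genes had 4 of 24 each way (16.7%), against 3 and 3 with the trend removed. JAG1, a ligand, had 100, 95.4 and 116 CPM with DDR against 39.6, 33.6 and 37.9 CPM with DMSO in Saos2, and 57.5 and 56.8 CPM with DDR against 36.2 and 37.8 CPM with DMSO in MG-63, a rise in both lines that was larger in Saos2 by 0.86 ± 0.14. NOTCH1, a receptor, rose by 0.88 ± 0.12 in MG-63, with −0.20 ± 0.10 in Saos2. The Hippo list had 6 of 30 higher (20%) and 7 lower (23.3%), against 3 and 4 with the trend removed. Of these NT5E, the surface enzyme CD73, fell by 0.97 ± 0.12 in MG-63, with 0.21 ± 0.12 in Saos2, and AJUBA, a scaffold that restrains the LATS kinases, rose by 0.98 ± 0.08 in Saos2 and 1.74 ± 0.11 in MG-63. KLF factors had 3 of 14 lower (2 with the trend removed), among them KLF5, which rose by 1.90 ± 0.15 in MG-63, with 0.24 ± 0.11 in Saos2, and KLF13, which rose by 1.27 ± 0.13 in MG-63, with 0.39 ± 0.10 in Saos2. SOX13, a relative of SOX9, rose by 0.98 ± 0.14 in MG-63, with −0.11 ± 0.10 in Saos2. Of 37 HOX cluster genes 1 was higher, HOXA13 (1.68 ± 0.32), which patterns distal limbs, and 1 lower, HOXD9 (−1.05 ± 0.35). The HOXD9 call was lost with the trend removed (−0.584, adjusted p = 0.234) and without 7 of the 10 libraries, each left out in turn. The list counted 4 higher and 1 lower with the trend removed.

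TNFRSF11B, which encodes osteoprotegerin, the decoy that holds back osteoclasts, had 7.1, 7.92 and 10.1 CPM with DDR against 7.3, 7.85 and 9.03 CPM with DMSO in Saos2, and 190 and 211 CPM with DDR against 619 and 643 CPM with DMSO in MG-63. It fell by 1.65 ± 0.13 in MG-63, and its Saos2 groups overlapped. RUNX2, the master factor of osteoblasts, had 503, 498 and 519 CPM with DDR against 400, 434 and 449 CPM with DMSO in Saos2, and 14.4 and 14.2 CPM with DDR against 6.66 and 6.8 CPM with DMSO in MG-63, a difference of −0.84 ± 0.12. In all 7 of 38 bone matrix and osteoblast genes were lower (18.4%, beside 6.31% of all genes and 9.85% of protein-coding genes measured in both lines) and 2 higher (8 and 2 with the trend removed). The lower count was 4 without DMSO replicate 2, 11 without DDR replicate 1 and 2 without DDR replicate 2 of MG-63. ALPL, the alkaline phosphatase of bone, was called lower (−4.28 ± 1.04, named after its values were seen) although it had only 0.123 and 0.574 CPM with DDR against 0.0333 and 0 CPM with DMSO in MG-63, beside 851, 1071 and 808 CPM with DDR against 984, 1016 and 907 CPM with DMSO in Saos2. Matrix proteases and their inhibitors had 7 of 28 lower (25%) and 1 higher (5 and 1 with the trend removed), led by ADAMTS5 and by PLAT, the tissue plasminogen activator, which had 0.054, 0.125 and 0.0283 CPM with DDR against 1.35, 1.63 and 1.01 CPM with DMSO in Saos2, and 4.81 and 4.59 CPM with DDR against 4.66 and 3.82 CPM with DMSO in MG-63. Integrins and laminins had 4 of 28 lower (14.3%) and 1 higher (7 and 2 with the trend removed). ITGA5, the chain of the main fibronectin receptor, fell by 0.92 ± 0.09 in Saos2, with 0.12 ± 0.11 in MG-63. Collagens had 3 of 37 lower and 2 higher, against 1 and 3 with the trend removed, and the lower count was 1 without DDR replicate 2 and 5 without DDR replicate 1 of MG-63. COL5A2 and COL6A1 rose in MG-63, by 0.71 ± 0.09 and 0.68 ± 0.13, with 0.02 ± 0.07 and 0.05 ± 0.10 in Saos2. The difference of COL5A2 was −0.698 with the trend removed and stayed called, while that of COL6A1 was −0.134 (adjusted p = 0.342). The COL6A1 call was also lost without DDR replicate 2 of MG-63. MATN2, a matrilin, fell by 0.67 ± 0.11 in Saos2, and its MG-63 groups overlapped.

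Of 29 cholesterol genes, 19 fell in Saos2 and 14 in MG-63, beside 1093 and 1065 of all 18,842 genes tested. The difference was called lower for 8 (27.6%) and higher for 1 (3.45%), against 6 and 0 with the trend removed. Among protein-coding genes measured in both lines 9.85% had a lower and 9.64% a higher response. DHCR7, the enzyme of the last step to cholesterol, had 5.83, 5.7 and 4.67 CPM with DDR against 22.2, 24 and 23.3 CPM with DMSO in Saos2, and 15.5 and 20.4 CPM with DDR against 28.4 and 29.5 CPM with DMSO in MG-63. The groups of DHCR7 did not overlap in either line, and it fell in both, by 2.10 ± 0.15 in Saos2 and 0.69 ± 0.17 in MG-63, a difference of −1.41 ± 0.23. Of 21 fatty acid genes 2 were lower (9.52%), FASN, the fatty acid synthase (−0.93 ± 0.19), and SCD, which makes monounsaturated fatty acids (−0.51 ± 0.12). The FASN difference was −0.384 with the trend removed, under the fold threshold, and the list then counted 3 lower and 1 higher. The SCD call was lost without DMSO replicate 1 or DDR replicate 2 of MG-63 and without DMSO replicate 2 or DDR replicate 1 of Saos2. Glycolysis and hypoxia genes had 8 of 39 lower (20.5%) and 2 higher (5.13%), against 8 and 1 with the trend removed, and 13 were lower without DDR replicate 2 of Saos2. ENO1, an enolase, had a difference of −0.67 ± 0.12, and EPAS1, the hypoxia factor HIF-2 alpha, one of 0.74 ± 0.12.

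Of 58 cytosolic ribosomal protein genes 2 were lower (3.45%) and 0 higher, namely RPL18 (−0.57 ± 0.14) and RPL8 (−0.53 ± 0.15), with a median of −0.021. Over all genes the shares were 6.31% lower and 6.96% higher, and over protein-coding genes measured in both lines 9.85% and 9.64%. With the trend removed both calls were lost, at −0.328 for RPL18 and −0.0547 for RPL8, and the list counted 1 higher and 1 lower. Of 47 nuclear genes of oxidative phosphorylation 1 was lower (2.13%), ATP5G1 (−0.54 ± 0.17), and 4 were with the trend removed. Without DDR replicate 2 of Saos2 9 ribosomal protein genes and 5 oxidative phosphorylation genes were lower. Of 43 initiation factors 3 were lower (6.98%, near the share of all genes) and 0 higher. Among them were EIF5A (−0.62 ± 0.13) and EIF3C (−1.11 ± 0.37), which shares reads with a near-identical copy. With the trend removed 1 initiation factor was lower, and the EIF5A difference was −0.345. EIF4A1 and EIF4A2 encode the target of DDR. EIF4A1 had 11.9, 9.8 and 11 CPM with DDR against 13.1, 11.3 and 12.1 CPM with DMSO in Saos2, and 7.28 and 6.66 CPM with DDR against 4.83 and 5.18 CPM with DMSO in MG-63. Its difference of −0.64 ± 0.22 did not pass the threshold (edgeR adjusted p = 0.0504, 95% interval −1.10 to −0.18). It was called under several other scalings, by DESeq2 and with a block on replicate number. EIF4A1 has near copies in the genome that can take its reads. EIF4A2 had 420, 370 and 401 CPM with DDR against 336, 322 and 327 CPM with DMSO in Saos2, and 1110 and 1059 CPM with DDR against 919 and 942 CPM with DMSO in MG-63. The interval of its difference, −0.16 to 0.27, lies within the fold threshold. With the GC trend removed the EIF4A2 difference was −0.251 (edgeR adjusted p = 0.0612), outside that interval and not called.

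BIRC2, the ubiquitin ligase cIAP1, had 118, 127 and 141 CPM with DDR against 60.1, 63.4 and 69.8 CPM with DMSO in Saos2, and 169 and 166 CPM with DDR against 153 and 166 CPM with DMSO in MG-63. It rose by 1.00 ± 0.08 in Saos2, a difference of 0.92 ± 0.12. XIAP, the caspase inhibitor, rose by 0.75 ± 0.07 in Saos2, with −0.02 ± 0.09 in MG-63, but its difference of 0.77 ± 0.11 was 0.465 with the GC trend removed. The BCL2 and caspase list had 4 of 34 higher (11.8%) and 5 lower (14.7%), beside 9.64% and 9.85% of protein-coding genes measured in both lines. With the trend removed it had 1 higher and 6 lower. It had 3 lower when any 1 MG-63 library but DDR replicate 1 was left out, and likewise without DMSO or DDR replicate 1 of Saos2. Without DDR replicate 2 of Saos2 it had 9 lower. NF-kB and TNF response genes had 2 of 23 higher (8.7%) and 1 lower (4.35%), with BCL3, an IkB-family coactivator, as the lower one (−0.69 ± 0.20). The BCL3 difference was −0.0831 with the trend removed (adjusted p = 0.813), the list then counted 1 higher and 0 lower, and the call was also lost without DMSO or DDR replicate 1 of MG-63. Coregulators of transcription had 5 of 59 higher and 1 lower, with KAT2B, an acetyltransferase, at 1.01 ± 0.14 and MED13, a Mediator subunit, at 0.56 ± 0.10. With the trend removed the list counted 3 higher and 0 lower, and KAT2B was at 0.782, still called, but MED13 at 0.236 (adjusted p = 0.056). Of 30 p53 targets 4 were higher and 4 lower (13.3% each), against 1 and 4 with the trend removed. These counts moved with single libraries, to 6 higher and 1 lower without DMSO replicate 1 of MG-63, 5 and 8 without DDR replicate 2 of Saos2, and 2 higher without DMSO replicate 2 of MG-63 or DMSO replicate 1 of Saos2. PLK2, a stress-induced kinase, had 1.07 ± 0.15. The cytokine list had 2 of 23 higher, SOCS2, a feedback inhibitor of growth hormone signaling (0.95 ± 0.19), and JAK2, a kinase of cytokine receptors (0.73 ± 0.14), and 2 lower (1 and 0 with the trend removed, when JAK2 was at 0.377). Of the 10 arrestin-domain genes tested 1 was higher, ARRDC4 (0.75). Among markers of other cell types 3 were called, where 13.3% of all genes tested were. They were SNAP25 (1.79 ± 0.61) of 4 neuronal markers tested, PPARG (0.89 ± 0.29) of 2 fat and muscle markers and NFATC1 (−1.32 ± 0.39) of 3 osteoclast markers. No call fell on the 2 epithelial, 1 blood and 3 endothelial markers tested. The call of SNAP25 was lost without any 1 library, and those of PPARG and NFATC1 were lost without several single libraries and, like that of SNAP25, with the trend removed. None of these 3 reached 10 CPM in any of the 10 libraries.

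The 6 genes that the study names from its RNA-seq rose in both lines. JUN, an AP-1 subunit, had 71, 92.6 and 85.6 CPM with DDR against 22, 19.5 and 22.7 CPM with DMSO in Saos2, and 428 and 468 CPM with DDR against 165 and 169 CPM with DMSO in MG-63. It rose by 1.96 ± 0.09 in Saos2 and 1.43 ± 0.11 in MG-63, and the difference of 0.53 ± 0.14 was under 0.5 by total counts, with TMM within each line and without some libraries. FOSL2, another AP-1 subunit, had 543, 651 and 580 CPM with DDR against 149, 142 and 146 CPM with DMSO in Saos2, and 163 and 176 CPM with DDR against 63.7 and 60.9 CPM with DMSO in MG-63, a difference of 0.57 ± 0.11 that was not called without DDR replicate 2 of Saos2. HEY1, a NOTCH target, had 25.3, 25.3 and 21.1 CPM with DDR against 3.46, 3.04 and 4.59 CPM with DMSO in Saos2, and 7.59 and 9.06 CPM with DDR against 3.23 and 3.88 CPM with DMSO in MG-63. HEY1 thus rose more in Saos2, by 2.69 ± 0.15 against 1.22 ± 0.19, from like levels with DMSO. No difference was called for RHOB, a small GTPase (−0.24 ± 0.16, 95% interval −0.58 to 0.10), or DUSP16, a JNK phosphatase (−0.03 ± 0.14, 95% interval −0.32 to 0.26). The study chose these 6 on these samples.

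Of the 20 genes whose proteins the study examined on Western blots, 5 had a lower (25%) and 1 a higher response (5%) in Saos2. With the trend removed they numbered 3 and 0. Among protein-coding genes measured in both lines 9.85% had a lower and 9.64% a higher response. PARP1, which senses DNA breaks, had 307, 355 and 308 CPM with DDR against 400, 455 and 465 CPM with DMSO in Saos2, and 383 and 407 CPM with DDR against 310 and 319 CPM with DMSO in MG-63, a difference of −0.77 ± 0.11. MET, the receptor of hepatocyte growth factor, fell by 0.63 ± 0.10 in Saos2, with 0.23 ± 0.10 in MG-63. H2AFX, the histone variant marked at DNA breaks, fell by 0.85 ± 0.18 in Saos2, with 0.44 ± 0.21 in MG-63. GAPDH, an enzyme of glycolysis (−0.64 ± 0.13), and AKT1S1, an inhibitor of mTORC1 (−0.77 ± 0.16), were lower, and both calls were lost with the trend removed. EGFR rose in both lines, by 0.53 ± 0.07 in Saos2 and 0.67 ± 0.09 in MG-63 (95% interval of the difference −0.38 to 0.10). STAT3, IGF1R, PCNA and PTK2 had differences between −0.41 and 0.34, under the fold threshold.

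Some transcripts rose with DDR to a like extent in both lines, and those named here were chosen for the most alike responses. Their narrow intervals thus follow from the choice and are no separate finding of equal response. EP300, a histone acetyltransferase and coactivator (chr22:41488596-41576081, + strand), had 367, 381 and 399 CPM with DDR against 158, 163 and 176 CPM with DMSO in Saos2, and 321 and 317 CPM with DDR against 140 and 135 CPM with DMSO in MG-63. It rose by 1.21 ± 0.07 in Saos2 and 1.21 ± 0.08 in MG-63, and the 95% interval of the difference was −0.22 to 0.21. The same held for the splicing regulator RBFOX2, the ubiquitin ligase SMURF2, the scaffold kinase PEAK1, the chromatin protein MSL1, the start codon selection factor EIF1, the import receptor KPNB1 and TTC28. They rose by 0.50 to 0.77 in either line, and their intervals stayed between −0.25 and 0.25.

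A few genes were called while measured in 1 line only, and these rest on few counts in the other. POSTN, the matrix protein periostin, fell by 1.55 ± 0.12 in MG-63, from counts of 3919 and 3939 with DDR against 10596 and 12713 with DMSO, and had 10, 6 and 3 counts with DDR against 2, 3 and 1 with DMSO in Saos2. EVI2B, ZNF610 and SYTL5 were likewise called higher in Saos2. TGFA, a ligand of EGFR, had 308, 251 and 306 counts with DDR against 576, 994 and 766 with DMSO in Saos2, and 1 and 23 counts with DDR against 0 and 1 with DMSO in MG-63, so its MG-63 change rests on 1 library. APOL1, CABYR and TCN2 were called lower as well. CABYR and TCN2 had no count with DMSO in MG-63. CABYR had 12 and 6 counts with DDR there, a mean level at least 3.01-fold higher than the 3 counts per library that a count of 0 allows. TCN2 had 8 and 2 counts with DDR, so 1 library lay under that floor, and its call was lost without DDR replicate 1 of MG-63. The calls of APOL1 and TGFA were lost without DDR replicate 1 and DDR replicate 2 of MG-63, in that order.

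Genes outside the protein-coding class went mostly 1 way. Of 5034 such genes tested, 170 had a higher response in Saos2 and 18 a lower one, against 1141 and 1171 of 13,808 protein-coding genes. Transcripts annotated as antisense gave 62 higher and 0 lower calls among 1243 tested, and lincRNAs 53 and 8 among 1196. With the GC trend removed the antisense counts were 43 and 0 and the lincRNA counts 42 and 6. Without 1 MG-63 library the antisense class gave 32 to 39 higher calls, and the lincRNAs gave 24 to 31 without either MG-63 DMSO library or DDR replicate 2 of MG-63. The antisense class had a median level of 0.517 CPM in Saos2 and 0.306 CPM in MG-63. In Saos2 53 of them rose and 21 fell, and in MG-63 9 rose and 73 fell. Of all 18,842 genes tested, 1405 rose and 1093 fell in Saos2, and 1191 rose and 1065 fell in MG-63. With HTSeq's treatment of strand unknown, reads of an antisense gene and of its partner cannot be told apart.

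In the promoters of called genes, 14 short motifs were searched on both strands in the 250 bases before each RefSeq start; none contains another. The E-box CACGTG stood in 6.35% of promoters of genes with a higher response, 10.2% of those with a lower response and 8.05% of all protein-coding promoters. The cell cycle element TTTGAA stood in 12.8%, 6.8% and 9.33%, the ATF4 site TGATGNAA in 2.25%, 1.07% and 1.78%, and the interferon core GAAANNGAA in 5.94%, 6.19% and 5.5%. The AP-1 site TGANTCA stood in 4.57%, 4.13% and 4.67%, the cAMP element TGACGTCA in 2.12%, 2.75% and 2.33%, and the sterol element TCACNCCAC in 0.956%, 1.38% and 0.899%. The E2F site TTTGGCGC stood in 0.683%, 0.917% and 0.817%, and the E2F site TTTCCCGC in 1.57%, 2.37% and 1.97%. The antioxidant element TGACNNNGC stood in 11%, 13.3% and 11.6%, and the RBPJ site GTGGGAA in 5.6%, 4.05% and 4.93%. The TEAD site GGAATG stood in 9.76%, 9.78% and 10%, and the RUNX site TGTGGTT in 3%, 2.75% and 2.86%. The heat shock pair GAANNTTC stood in 4.71%, 3.67% and 4.31%. The promoters themselves differed in GC content, with medians of 62.4% for genes with a higher response and 67.2% for those with a lower one, beside 64.0% for all. The shares are a description only.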

How the data were processed

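The raw counts per gene were made and deposited by the authors from 100-bp read pairs of TruSeq stranded mRNA libraries: reads of ribosomal, mitochondrial and transfer RNA were filtered with Bowtie 2 (2.5.1), the rest were aligned to GRCh37/hg19 with STAR (2.7.3a) and counted with HTSeq (0.11.2), whose strand setting is not given in the sources used, nor is the annotation release. The 15 raw count columns were used. Another 63 per-sample columns (normalized counts, FPKM and copies) and the authors' own fold changes and p-values from DESeq2 were not used.

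The tables of MG-63 (57,773 genes) and Saos2 (58,051 genes) were joined by 52,684 shared Ensembl IDs. In R 4.3.3, genes were filtered with filterByExpr (edgeR 4.0.16), libraries were scaled with TMM, the 15 libraries were fitted as 6 groups with glmQLFit (robust off), and (DDR − DMSO in Saos2) − (DDR − DMSO in MG-63) was tested with glmQLFTest over 18,842 genes. Every adjusted p is this test's, after Benjamini-Hochberg. The SE is the log2 change over the square root of F. A gene counts as measured in a line when filterByExpr on that line's libraries keeps it. Replicate pairs differed by more than counting noise (chi-square per degree of freedom 6.85 to 26.5). No library was dropped or imputed. The script was tested on simulated data.

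The genes and lists were chosen with earlier results of these data known. Named genes are the 12 called each way with the smallest p (protein-coding, at least 2 CPM in each line), the 6 clearest reversals each way, the 2 called members of each of 47 lists with the smallest p, the genes the study names or blots, the 8 most alike responses, and 4 each way measured in 1 line only, 135 in all. Other genes are marked as chosen after their values were seen, and a few items are not reported here. Gene positions are from the GENCODE annotation lifted to GRCh37, and promoters are from RefSeq on GRCh38.p14 (24 of the 32 most different and reversed genes had an entry).

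The deviations of DMSO and DDR libraries of the same replicate number had correlations of 0.15 in MG-63 and 0.13, 0.25 and 0.57 in Saos2. The highest correlation with another number was 0.29, −0.16 and −0.015 in Saos2, so replicate 1 went against pairing. In MG-63 it was −0.15, which 2 libraries a group fix as the mirror of 0.15. Neither this measure nor any label settles whether the numbers pair the samples. The alternatives were the replicate block, other scalings (RLE, total counts, TMM within each line), no filter, other gene sets, the 10 libraries alone, other fold minimums, glmTreat, DESeq2 1.42.0, limma-voom (3.58.1) and each library left out. Removal of a trend with GC content and transcript length, and the block on the 10 libraries, were added after seeing the data.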

Additional observations from a re-analysis of the deposited data

Results flagged for a closer look

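For 110 of the 135 named genes the test of the difference itself showed unequal responses to DDR in Saos2 and MG-63 (edgeR, called at an adjusted p of at most 0.05 and a log2 difference of at least 0.5). Most of the rules for naming genes admit only called genes, so this count follows largely from the choice. Over all genes tested the share called was 13.3%. The groups of 2 and 3 libraries are too small for the test of single libraries that stand apart. The values given are the log2 response in Saos2 minus that in MG-63, and no explanation of them was tested.

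Of genes called in opposite directions or leading by p, the higher ones were SOX9 (2.71), SEMA6D (1.71), NAV3 (1.81), DSEL (1.46), KRCC1 (1.77), RGS17 (1.76), SPRED1 (1.30), PER3 (1.53), TRIM2 (1.20), ITPR1 (1.54), TMEM65 (1.06), BNC2 (1.21), IL7 (1.78) and TRIM9 (1.59). The lower ones were SLC44A2 (−2.56), IFIT3 (−1.88), IFIT2 (−1.66), RUNX3 (−1.39), DKK1 (−1.28), LBH (−1.95), SLC7A5 (−1.39), ITGA4 (−1.14), GALNT2 (−1.40), ADAMTS5 (−1.38), TGFB1 (−1.26), BAMBI (−1.70), GPRC5B (−2.61), GALNT3 (−2.01), SSBP4 (−1.77), RAB3B (−1.83), NARFL (−1.40) and MT-ND6 (−1.38).

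Genes of division, the clock, survival and stress had higher responses for KIF14 (1.23), HMMR (1.12), CCND1 (0.99), CCNE2 (0.61), PLK2 (1.07), NR1D2 (0.79), BIRC2 (0.92), XIAP (0.77), CHORDC1 (0.77), DNAJB4 (0.52), EPAS1 (0.74), SOCS2 (0.95), JAK2 (0.73), KAT2B (1.01), MED13 (0.56), ARRDC4 (0.75), FOSL2 (0.57) and JUN (0.53), and lower ones for MCM7 (−0.87), HIST1H2AC (−2.32), HIST1H2BK (−1.71), H2AFX (−1.29), PARP1 (−0.77), GADD45B (−0.92), JUND (−0.86), SESN2 (−1.37), SLC3A2 (−1.23), ABCC1 (−0.93), TKT (−0.98), CALR (−0.61), XBP1 (−0.65), BCL3 (−0.69), KLF5 (−1.65) and KLF13 (−0.88).

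Surface, signaling, matrix and lineage genes were higher for PDGFRA (1.17), TNFRSF11B (1.70), NT5E (1.18), JAG1 (0.86), HEY1 (1.46), CD44 (0.81), HOXA13 (1.68), PPARG (0.89) and SNAP25 (1.79), and lower for GFRA1 (−2.43), MET (−0.86), PLXNB2 (−0.87), NOTCH1 (−1.08), AJUBA (−0.76), RUNX2 (−0.84), SOX13 (−1.09), ITGA5 (−1.03), COL5A2 (−0.69), COL6A1 (−0.64), MATN2 (−1.05), PLAT (−4.38), HOXD9 (−1.05), NFATC1 (−1.32) and AKT1S1 (−0.77).

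Metabolic and translation genes were lower for DHCR7 (−1.41), FASN (−0.93), SCD (−0.51), ENO1 (−0.67), GAPDH (−0.64), RPL18 (−0.57), RPL8 (−0.53), ATP5G1 (−0.54), EIF5A (−0.62) and EIF3C (−1.11).

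Genes measured in 1 line only were higher for POSTN (3.38), ZNF610 (2.59), EVI2B (4.87) and SYTL5 (3.57) and lower for TGFA (−5.50), CABYR (−6.14), APOL1 (−3.14) and TCN2 (−6.49), and these sizes rest on few counts in the other line, so they depend on the prior count of the fit and are no bounds.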

How the results depend on the processing

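Without any change of setting the calls numbered 1311 higher, 1189 lower and 75 in opposite directions. With a fold minimum of 1 on the log2 scale they numbered 360, 363 and 7, and by glmTreat against 0.5 they numbered 183, 153 and 3, since both ask for larger differences. With the trend in GC content and transcript length removed they numbered 747, 775 and 50, by limma-voom 1149, 995 and 49, and with no fold minimum 1835, 1452 and 351. When single libraries were left out the counts ran from 893 to 1648 higher, from 729 to 1754 lower and from 45 to 137 in opposite directions. The opposite calls numbered 45 without DDR replicate 2 or DMSO replicate 2 of MG-63, 49 without DMSO replicate 1 of MG-63 and 137 without DDR replicate 2 of Saos2, and the cause was not tested. The replicate block gave 1398, 1386 and 86, with 2488 of the 2500 calls shared (99.5%), and moved none of these 3 totals by over 1.5 times. Among the lists it moved small counts further: lower calls numbered 4 of cartilage genes, 5 of collagens and 2 each of ERK feedback, NF-kB and coregulator genes with the block, against 1, 3 and 1 each without it, and higher calls numbered 3 of HOX genes, 5 of axon guidance genes and 2 of integrins and laminins, against 1, 3 and 1. With the 10 libraries alone 18,535 genes were tested, and the calls numbered 1242, 1048 and 67. On these 10 libraries the block gave 1457, 1450 and 102. TMM within each line gave 1088 and 1372, RLE 1179 and 1312, and DESeq2 1229 and 1414.

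Of 2522 values of the 110 called genes under the alternatives 2364 kept the call, 158 lost it and 0 changed sign. Most of these genes were chosen for small p or large changes in these same libraries, so they say little of the other calls. Of all 2500 calls, 13.4% were kept by glmTreat and 45.2% with the GC trend removed. Without DDR replicate 2 of MG-63 62.2% were kept, and 99.5% with the replicate block. Of the 110 genes 48 lost the call under at least 1 alternative, 23 of them with the GC trend removed. EIF4A1, not called, was called under several of the other scalings, by DESeq2 and with the block.

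With 2 MG-63 libraries a group, the spread was taken as common to both lines. Doses differed between the lines. Genes with few counts in 1 line give differences whose size is uncertain. Counting noise was smaller than the spread between replicates, so depth was not what set the errors of the well-expressed genes. Each line is 1 line, and its table, culture and sequencing cannot be told apart from it.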
